A study of Mus musculus with 26 samples.

Results

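The dual-specificity MAP kinase phosphatases (MKPs) were followed in 3 murine lung cancer cell lines that carry an EML4-ALK fusion and were cultured with the ALK inhibitor alectinib or with DMSO. The family comprised 10 genes, taken from the count table by symbol (Dusp1, Dusp2, Dusp4, Dusp5, Dusp6, Dusp7, Dusp8, Dusp9, Dusp10 and Dusp16), of the 55391 genes in the table, and all 10 passed the filter on low counts. The lines are called EA1, EA2, which was a gift to the study, and EA3. All are of C57BL/6 background, and in this tumor model the fusion is made by an adenovirus carrying Cas9 and guide RNAs to Eml4 and Alk. Each line received alectinib at 100 nM or, as control, DMSO at 0.1%, and 1 polyA RNA library was made per line and treatment on days 1, 2, 3 and 5, which gave 6 groups of 4 libraries and 24 libraries in all. A further 2 libraries labelled EA3 day 7 resembled EA2 more than EA3 and were kept out of the comparisons below, except as an alternative setting.

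The libraries held 5780062 to 11732401 counts, and levels are given as CPM, the read count scaled to a fixed size of the library after TMM normalization. No line, treatment and day had a repeated library, so the 4 days served as replicates, and p-values measure the spread between days. The days are those of the sample titles, which include day 2, although the treatment protocol in the labels does not list it. The labels do not say whether libraries came from separate cultures. In RNA from whole cultures, fewer cells with a transcript and less transcript per cell cannot be told apart. Keratin and E-cadherin transcripts (Krt8, Krt18, Krt19 and Cdh1) were counted in every library, whereas Epcam stood at or below 7.77 CPM in EA1 and EA2, against at least 75.2 CPM in EA3. Of 7 leukocyte markers, Ptprc did not exceed 0.358 CPM in any library, while Cd68, a lysosomal protein gene of macrophages, had maxima of 9.56, 87.3 and 91.6 CPM across the libraries of EA1, EA2 and EA3, and Csf1r reached 6.87 CPM in EA3. The 7 summed to 1.46 to 94.1 CPM in DMSO and 1.64 to 52 CPM in alectinib. Epithelial markers moved in both directions with the treatment. The summed level of 6 epithelial markers was 4633 to 9252 CPM in EA1 DMSO and 3245 to 5367 CPM in EA1 alectinib, 1811 to 2695 and 567 to 1169 CPM in EA2, and 4681 to 6777 and 2974 to 6747 CPM in EA3. Of the 6, Krt18, Krt8 and Krt19 were lower in the treated library in 12, 10 and 8 of 12 line and day pairs, whereas Cdh1, Epcam and Cldn7 were higher in 10, 7 and 7 of 12. The tally for Cldn7 rests partly on values at the floor, as it had at most 3 counts in each EA1 and EA2 library. Epcam had 3 to 7 counts in EA2 DMSO and 0 in each EA2 alectinib library, so there it was lower on each day. By the test, 1, 1 and 1 of the 6 rose and 1, 2 and 1 fell in EA1, EA2 and EA3. Of all genes tested, 19.0%, 13.0% and 17.5% rose and 14.6%, 11.3% and 15.1% fell, so that all but the 2 that fell in EA2 were near those shares. The summed level of fibroblast markers over 8 genes was 9.09 to 44.1 CPM in EA1 DMSO and 126 to 478 CPM in EA1 alectinib, 58.5 to 71.5 and 122 to 240.0 CPM in EA2, and 10.2 to 20.2 and 84.8 to 274 CPM in EA3. Of 6 such markers tested, 5, 3 and 5 rose in EA1, EA2 and EA3, where 19.0%, 13.0% and 17.5% of all genes tested rose. In DMSO, 5, 3 and 5 of the 8 had at most 3 counts in each library of those lines. Only 4 of the 8 passed the filter in the DMSO libraries alone, so a rise among those tested is partly built in. The part of these markers in the results on the phosphatases was not tested.

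MKPs switch off MAP kinases by removing phosphate from both the threonine and the tyrosine of the activation loop. Their transcripts are often induced by the same pathways that they restrain, so they act as negative feedback. Dusp5, a nuclear enzyme, and Dusp6, Dusp7 and Dusp9, cytoplasmic enzymes, act mainly on ERK. Dusp1, Dusp2 and Dusp4 are inducible nuclear phosphatases with a broad choice of substrates, while Dusp8, Dusp10 and Dusp16 act mainly on the stress kinases JNK and p38. ALK signals to ERK through RAS, and in ALK-positive lung cancer Dusp6 is a known negative regulator of that pathway.

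The 4 promoters below were chosen because their genes moved in different ways with alectinib or with days in culture. Dusp5 and Dusp6 fell in every line, Dusp8 rose in EA2 and EA3, and Dusp1 rose with time in DMSO in EA1 and EA3. The sequences come from RefSeq (GRCm38.p6, the build of the counts), in which 8 of the 10 genes were matched, all but Dusp4 and Dusp9. Motifs were sought on both strands in the 250 bases before the start annotated there. Gene positions given below come from GENCODE, and the windows of Dusp1 and Dusp8 lie within those positions, as the annotated starts differ. Bases within an annotated exon of the gene are not printed. Capitals mark a motif, read 5′ to 3′ on the strand of the gene.
Dusp5, chr19:53528895-53529108, plus strand: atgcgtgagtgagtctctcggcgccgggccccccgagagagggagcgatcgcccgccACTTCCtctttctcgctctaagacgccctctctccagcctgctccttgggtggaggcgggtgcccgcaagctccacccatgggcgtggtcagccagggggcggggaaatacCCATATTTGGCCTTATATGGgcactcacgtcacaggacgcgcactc
Dusp6, chr10:99262981-99263230, plus strand: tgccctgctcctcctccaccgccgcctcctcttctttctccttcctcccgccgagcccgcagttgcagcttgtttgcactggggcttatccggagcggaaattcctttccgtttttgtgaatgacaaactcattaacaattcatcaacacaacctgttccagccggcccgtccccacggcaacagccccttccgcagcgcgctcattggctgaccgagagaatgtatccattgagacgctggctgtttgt
Dusp1, chr17:26508520-26508722, minus strand: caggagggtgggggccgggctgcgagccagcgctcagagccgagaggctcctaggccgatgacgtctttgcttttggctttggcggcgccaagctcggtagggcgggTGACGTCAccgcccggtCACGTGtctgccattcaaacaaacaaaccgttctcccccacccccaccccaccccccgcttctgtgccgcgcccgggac
Dusp8, chr7:142095285-142095534, minus strand: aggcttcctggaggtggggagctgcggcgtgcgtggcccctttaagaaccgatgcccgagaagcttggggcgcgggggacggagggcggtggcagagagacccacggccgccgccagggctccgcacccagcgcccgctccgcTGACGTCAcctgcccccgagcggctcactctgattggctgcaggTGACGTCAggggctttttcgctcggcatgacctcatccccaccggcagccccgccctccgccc

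The Dusp5 window, which an exon of the antisense gene AC137853.2 also covers, held 2 adjacent CArG boxes, the element bound by serum response factor, at 82 to 73 and 72 to 63 bases before the start. It also held 1 ETS core on the other strand (GGAAGT, capitals ACTTCC) 193 to 188 bases before it. Of 32851 mouse promoters of the same length, 1.47% held a CArG box and 19.7% the ETS core. Dusp1 held 1 cyclic AMP response element (CRE, TGACGTCA) at 143 to 136 bases and an E-box (CACGTG) at 126 to 121 bases, and Dusp8 held 2 CREs, at 107 to 100 and 63 to 56 bases. The shares of all promoters were 1.55% for the CRE and 6.02% for the E-box, which Dusp2 also held. The core TGACG, part of each CRE and present in 17.8% of promoters, was in Dusp1, Dusp5, Dusp8 and Dusp16 and is not capitalised. In the windows of Dusp6, Dusp7 and Dusp10 none of these motifs was found, nor was the longer ETS site CCGGAAGT (2.88% of promoters), the AP-1 site TGANTCA (6.75%) or the forkhead site TGTTTAC (3.17%) in any of the 8 windows. A match is a description of the letters and shows no binding.

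With alectinib, the ERK-specific phosphatases Dusp5, Dusp6 and Dusp9 fell in all lines. Dusp6, whose product keeps ERK in the cytoplasm and dephosphorylates it there, lies on chromosome 10 from 99263231 to 99267489. In EA1, it stood at 188, 242, 167 and 149 CPM on days 1, 2, 3 and 5 in DMSO, and at 29.9, 33.3, 59.1 and 29.3 CPM in alectinib. In EA2, the DMSO libraries had 256, 319, 405 and 334 CPM and the alectinib libraries 15.4, 11.1, 8.12 and 6.63 CPM. EA3 had 188, 309.9, 255 and 265 CPM in DMSO against 18.3, 22.6, 49.1 and 21.6 CPM in alectinib. Treated and control libraries did not overlap in any line, and the lowest treated values were those of EA2. The log2 fold change over the 4 days was -2.34 in EA1 (95% interval -2.98 to -1.69), -5.03 in EA2 (-5.76 to -4.29) and -3.28 in EA3 (-3.95 to -2.61). The adjusted p was 0.000101, 2.02e-06 and 1.26e-05 (edgeR, quasi-likelihood; Benjamini-Hochberg over the 14264 genes tested).

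Dusp5, an immediate-early gene whose product holds ERK in the nucleus, lies on chromosome 19 from 53529109 to 53542431. In EA1, it stood at 16.5, 16.9, 75.1 and 80.3 CPM in DMSO on days 1, 2, 3 and 5 and at 8.1, 5.88, 4.14 and 3.77 CPM in alectinib. In EA2, DMSO libraries had 39.6, 44, 132 and 49.7 CPM against 8.3, 7.42, 6.43 and 3.6 CPM with the drug. In EA3, the values were 59.9, 68.7, 158 and 137 CPM against 16.1, 10.9, 13.2 and 6.92 CPM. The groups did not overlap, and in each line the day 5 alectinib library was the lowest. The fall came to -2.79, -3.23 and -3.09 log2 units in EA1, EA2 and EA3 (SE 0.622, 0.600 and 0.581), with adjusted p of 0.00462, 0.00181 and 0.00166. Antisense gene AC137853.2 overlaps 22.1% of the Dusp5 exon length, and the strand setting of the counting is not given in the sources used here. That gene had 0 to 5 counts per library, where Dusp5 had at least 32.

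Dusp9, the X-linked ERK phosphatase, lies on chromosome X from 73639419 to 73643514. Per kb of exon, it had the lowest mean share of the family among the 4 ERK-specific genes in each line and treatment. In EA1, it had 4.18, 2.34, 2.14 and 4.14 CPM in DMSO and 1.25, 0.735, 0.518 and 0.335 CPM in alectinib, the latter from 4 to 13 counts. In EA2, it stood at 22.3, 25.1, 22.4 and 19.2 CPM in DMSO and 2.77, 4.42, 1.13 and 2.47 CPM in alectinib. In EA3, DMSO libraries had 48.5, 32.2, 36.9 and 40.2 CPM and alectinib libraries 17.2, 11.1, 13.4 and 6.6 CPM. Again no treated library reached the control range of its line. The log2 fold changes were -2.19 (adjusted p = 0.000944), -3.14 (2.53e-05) and -1.76 (0.000656).

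Dusp7, the cytoplasmic relative of Dusp6 (chromosome 9, 106368632 to 106375724), moved less. In EA1, it stood at 67.8, 52.1, 56.2 and 51.7 CPM in DMSO and at 36.8, 33.9, 27.7 and 26.2 CPM in alectinib. In EA3, it stood at 93.8, 86.4, 166 and 181 CPM against 55.1, 54.6, 78 and 24.9 CPM. EA2 had 52.7, 49.9, 61.3 and 53.3 CPM in DMSO and 55.1, 56.7, 79 and 42.7 CPM in alectinib, with the groups interleaved. Dusp7 fell by 0.88 log2 units in EA1 (adjusted p = 0.0247) and by 1.31 in EA3 (0.00335), and the value in EA2 was 0.07 (-0.51 to 0.66, adjusted p = 0.877). The call in EA1 was lost without day 1 (adjusted p = 0.0794) and without day 3 (0.11). Of the 4 ERK-specific genes, 4, 3 and 4 fell in EA1, EA2 and EA3, where 14.6%, 11.3% and 15.1% of all genes tested fell.

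**Figure D1:**
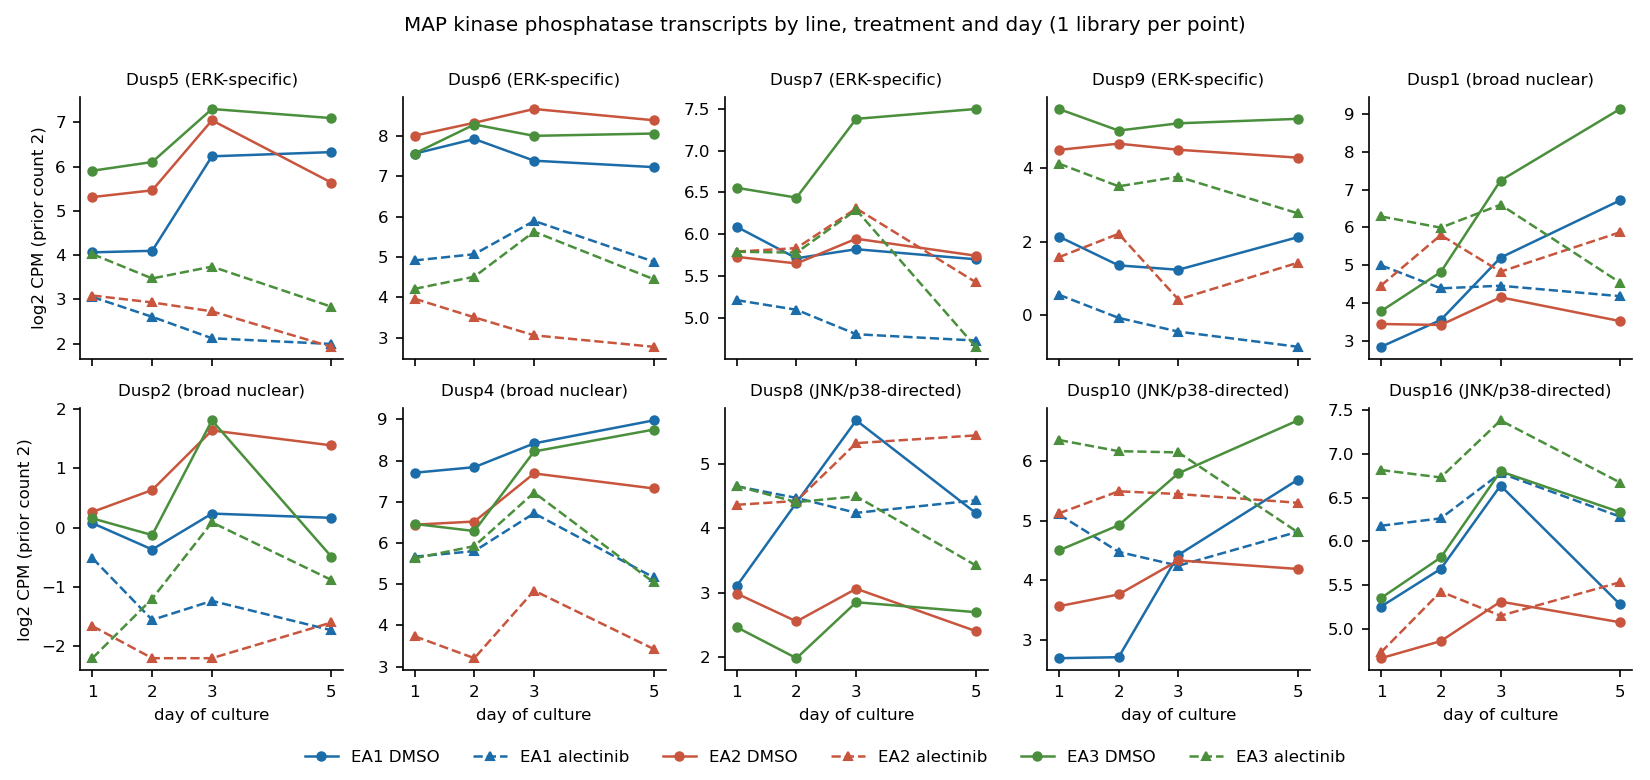
Level of each phosphatase (vertical axis, log2 CPM with a prior count of 2, scaled per gene) against day of culture (horizontal axis), with 1 library per point, solid lines for DMSO and dashed lines for alectinib. The dashed lines of Dusp5, Dusp6 and Dusp9 lie below the solid lines of the same color on every day, while those of Dusp1 and Dusp10 in EA1 and EA3 start above the solid lines and end below them.

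Among the broad nuclear phosphatases, Dusp4 fell with alectinib, Dusp1 did not pass the test, and Dusp2 was near the limit of detection. Dusp4, an ERK-induced phosphatase on chromosome 8 (34807297 to 34819894), stood in EA1 at 208, 229, 341 and 502 CPM in DMSO and at 50.7, 55.6, 105 and 35.7 CPM in alectinib. In EA2, it had 86.9, 91.6, 206 and 159.9 CPM against 13.1, 9.01, 28.5 and 10.6 CPM. In EA3, it had 87.9, 78, 298 and 430.2 CPM against 49.2, 60.5, 149 and 32.8 CPM. EA3 was the line where the groups overlapped, as the day 3 alectinib library lay above the DMSO libraries of days 1 and 2, but on each day the treated library was the lower. The log2 fold changes were -2.37 (adjusted p = 0.00242), -3.19 (0.00051) and -1.39 (0.0412). In EA3, the call was lost without day 1 (0.0957), without day 3 (0.0952), with EA3 fitted alone (0.125) and with scaling by library size alone (0.0515).

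Dusp2, a phosphatase best known from activated lymphocytes (chromosome 2, 127336159 to 127338376), was at the edge of detection, with at most 29 counts in a library. In EA1, 8, 5, 9 and 7 reads were counted in DMSO and 5, 1, 2 and 1 in alectinib. In EA2, the counts were 11, 9, 29 and 28 against 1, 0, 0 and 1, and in EA3 they were 10, 6, 25 and 3 against 0, 2, 9 and 3. The filter was passed through the DMSO libraries, so a difference among the genes that pass is partly built in. Summed over days, the DMSO libraries had 3.41 times the counts per library total in EA1 (exact interval 1.57 to 8.19), 33.9 times in EA2 (9.07 to 285) and 3.48 times in EA3 (1.87 to 6.87). These intervals cover counting error only. The test gave -1.9 (adjusted p = 0.049), -4.7 (0.00104) and -1.99 (0.0366) on the log2 scale. The call in EA1 was lost in 6 of 9 alternatives, namely without day 2 (0.1), without day 5 (0.174), without the day block (0.081), with DESeq2 (0.0511), with library size alone (0.0585) and with all 26 libraries (0.0558), and that in EA3 without day 1 (0.116), day 2 (0.0853), day 5 (0.0521) or the block (0.0514).

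Dusp1, an immediate-early and stress-inducible phosphatase (chromosome 17, 26505590 to 26562128), changed sides during the culture in EA1 and EA3. In EA1, it stood at 7.01, 11.6, 36.7 and 105 CPM in DMSO and at 31.8, 20.8, 21.9 and 18 CPM in alectinib. In EA3, it stood at 13.6, 28.1, 151 and 558 CPM in DMSO and 78.1, 63.6, 96.8 and 23.2 CPM in alectinib. In EA2, DMSO libraries had 10.7, 10.6, 17.6 and 11.3 CPM and alectinib libraries 21.9, 55.5, 28.3 and 58.4 CPM. The treated library was the higher on days 1 and 2 and the lower on days 3 and 5 in both EA1 and EA3, and the higher on 4 of 4 days in EA2, where the groups did not overlap. The day by day log2 ratio went from 2.15 on day 1 to -2.53 on day 5 in EA1, and from 2.50 to -4.58 in EA3. Averaged over days, the log2 fold changes were -0.10 (-2.23 to 2.04), 1.61 (-0.36 to 3.58) and -0.10 (-2.39 to 2.19), with adjusted p of 0.952, 0.227 and 0.955. In EA2, Dusp1 passed with the line fitted alone (adjusted p = 0.0175) and without a filter on low counts (1.93e-11). Without day 3 or day 5, the averages in EA1 and EA3 turned positive, at 0.17 and 0.68 in EA1 and 0.22 and 1.01 in EA3. Leaving out Dusp2, whose call is partly built in by the filter, Dusp4 was the only broad nuclear gene that fell, and it did so in each line, where 14.6%, 11.3% and 15.1% of all genes fell in EA1, EA2 and EA3.

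By the test, no JNK- and p38-directed phosphatase fell in any line, while Dusp8 rose in EA2 and EA3 and Dusp16 in EA1 and EA3. Dusp8, a phosphatase of JNK and p38 on chromosome 7 (142079490 to 142095843), stood in EA2 at 7.7, 5.65, 8.12 and 5.07 CPM in DMSO and at 20.3, 21.2, 39.7 and 43.2 CPM in alectinib. In EA3, it stood at 5.29, 3.73, 6.99 and 6.26 CPM against 24.9, 20.9, 22.3 and 10.5 CPM. EA1 had 8.37, 20.8, 50.8 and 18.6 CPM in DMSO and 24.9, 21.9, 18.6 and 21.4 CPM in alectinib. In EA2 and EA3, every treated library lay above every control library, and in EA1 the control range enclosed the treated one. Dusp8 rose by 2.17 log2 units in EA2 (adjusted p = 0.00205) and 1.80 in EA3 (0.00581), and the value in EA1 was 0.09 (-0.79 to 0.96, adjusted p = 0.891). The call in EA3 was lost without day 2 (0.0656), and the value in EA1 turned negative without day 1 (-0.39) or day 5, and without the day block (-0.18).

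Dusp16, which acts mainly on JNK (chromosome 6, 134715468 to 134792625), gave smaller values. In EA1, it stood at 38, 51.2, 99.3 and 38.6 CPM in DMSO and at 72.2, 76.5, 109.6 and 77.6 CPM in alectinib. In EA2, it had 25.2, 28.8, 39.5 and 33.5 CPM against 26.4, 42.8, 35.3 and 46.1 CPM, and in EA3 40.6, 56.1, 111 and 80.4 CPM against 112, 106, 166 and 102 CPM. The treated library was the higher in 11 of 12 line and day pairs, although the ranges overlapped in each line. Dusp16 rose by 0.66 log2 units in EA1 (adjusted p = 0.0197) and 0.82 in EA3 (0.00627), and the value in EA2 was 0.23 (-0.19 to 0.66, adjusted p = 0.431). These calls were lost without day 1 (0.0685 in EA1, 0.0517 in EA3), without day 2 (0.0898 and 0.0567), without the day block (0.161 and 0.0634), with all 26 libraries (0.0762 and 0.0659) and, in EA1, without day 5 (0.117).

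Dusp10, a phosphatase of p38 and JNK (chromosome 1, 184013302 to 184075636), followed a course like that of Dusp1. In EA1, it stood at 6.28, 6.35, 21.3 and 51.2 CPM in DMSO and at 34.2, 22, 18.7 and 27.9 CPM in alectinib. In EA3, the values were 22.4, 30.1, 55.2 and 102 CPM against 81.2, 71.3, 70.3 and 27.7 CPM, and in EA2 11.6, 13.4, 19.9 and 18 CPM against 34.6, 44.7, 43.3 and 39.1 CPM. Every treated EA2 library lay above the control libraries, whereas in EA1 and EA3 the order turned by day 5. The log2 fold changes over all days were 0.73 (-0.57 to 2.04), 1.38 (0.17 to 2.59) and 0.46 (-0.82 to 1.74), with adjusted p of 0.364, 0.093 and 0.585. In EA2, the value passed without day 5 (1.47, adjusted p = 0.038), with EA2 fitted alone (0.00141), with DESeq2 (0.0344) and without a filter (3.32e-08), and in EA1 Dusp10 passed without a filter (0.038). Without day 1, the value in EA3 was -0.05. Of the 3 JNK- and p38-directed genes, 1, 1 and 2 rose in EA1, EA2 and EA3, where 19.0%, 13.0% and 17.5% of all genes tested rose. With 3 genes, 1 is the smallest count above 0 and cannot be told apart from these shares. Of these calls, only that of Dusp8 in EA2 passed in every alternative.

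**Figure D2:**
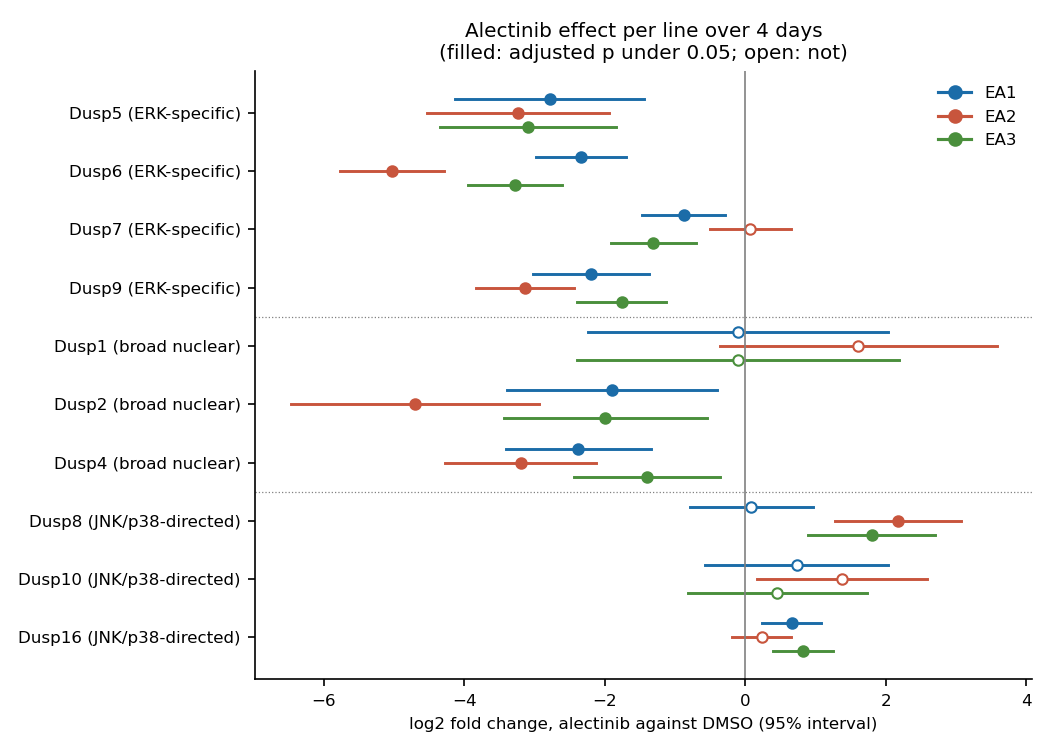
Log2 fold change of each phosphatase, alectinib against DMSO, over the 4 days of each line (horizontal axis), with 95% intervals as bars and filled points where the adjusted p was under 0.05. All filled points of the ERK-specific and broad nuclear genes lie below 0 and all filled points of the JNK- and p38-directed genes lie above 0.

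Leaving out Dusp2, 18 of 27 fold changes passed the test, and 13 of these passed in every alternative analysis that tested the gene. Of all genes tested, 33.6%, 24.4% and 32.6% were called in EA1, EA2 and EA3 in either direction. The daily ratios showed how far members kept their direction. The median daily log2 ratio of the 4 ERK-specific genes was -1.29, -1.46, -1.59 and -2.66 on days 1, 2, 3 and 5 in EA1. In EA2, it was -2.57, -2.49, -4.19 and -3.28, and in EA3 -1.68, -2.07, -1.91 and -3.23. The median of the 3 JNK- and p38-directed genes was 1.55, 0.58, -0.18 and 0.20 on days 1, 2, 3 and 5 in EA1. In EA2, it was 1.38, 1.73, 1.11 and 1.11, and in EA3 1.85, 1.24, 0.58 and 0.34. Over all genes tested, the daily median lay between 0 and 0.138. Dusp4, Dusp5, Dusp6 and Dusp9 were lower in the treated library in 12 of 12 line and day pairs, and Dusp7 in 9 of 12, the exceptions being days 1, 2 and 3 of EA2. Dusp8 and Dusp16 were higher in 11 of 12, Dusp10 in 9 and Dusp1 in 8. How many of all genes tested kept a direction this often is not given here. The same holds for groups that did not overlap, so these tallies of members have no background.

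**Figure D3:**
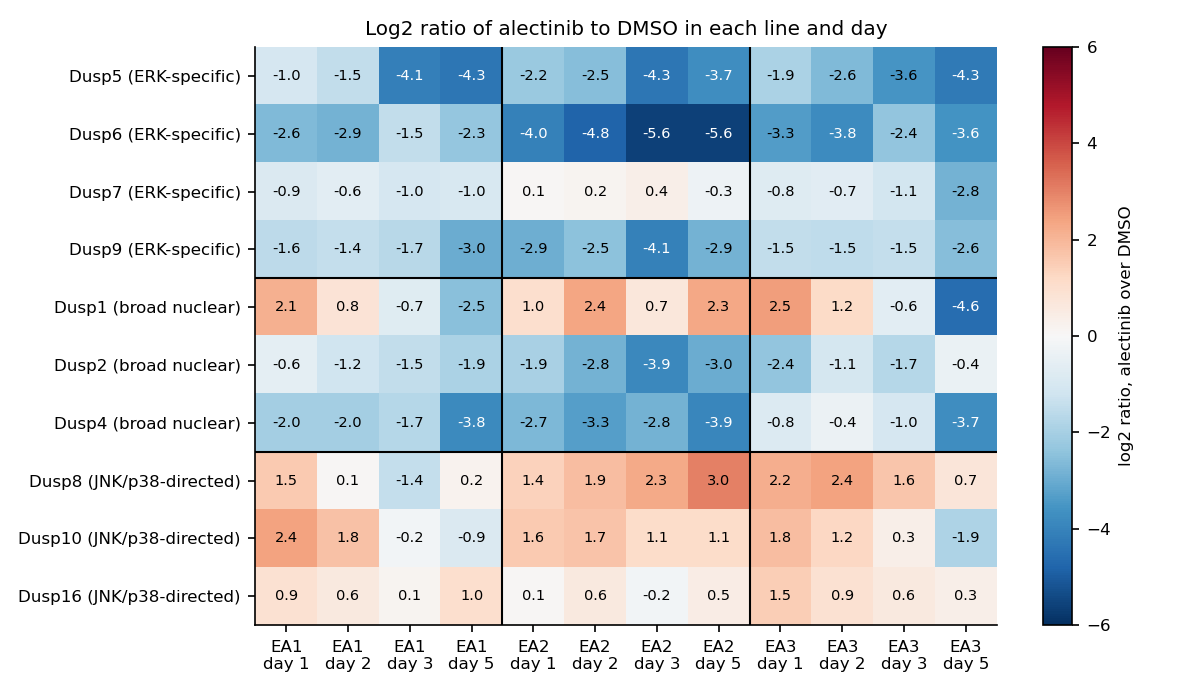
Log2 ratio of the alectinib to the DMSO library (prior count 2) for each phosphatase (rows) in each line and day (columns), with blue for lower and red for higher in alectinib. Rows of ERK-specific genes are blue in EA1 and EA3 on each day, Dusp1 and Dusp10 turn from red to blue between day 1 and day 5 in EA1 and EA3, and both stay red in EA2.

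Whether the drug response differed between lines was tested for each gene with 2 degrees of freedom. Dusp6 passed (adjusted p = 0.00605), so 1 of 10 members was called, where 6.84% of all genes were called. Its fold change in EA2 lay 2.69 log2 units below that in EA1 (a difference of -2.69, -3.60 to -1.78, adjusted p = 0.00302), and the difference of EA3 from EA2 was 1.75 (0.84 to 2.65, adjusted p = 0.0432). For Dusp6 in EA3 against EA1 it was -0.94 (-1.82 to -0.07, adjusted p = 0.292). Without day 5, the call between lines was lost (0.0633), and that of EA3 against EA2 was lost without day 2 (0.0787), day 3 (0.154) or day 5 (0.189). Dusp8, with a fold change 2.09 log2 units higher in EA2 than in EA1, passed in that pair (adjusted p = 0.0489) and not over the 3 lines (0.0731). The pair was lost without day 2 (0.0966), day 3 (0.252) or day 5 (0.186), while without day 1 the test over the lines passed (0.0279). Dusp7 had an adjusted p of 0.0864 over the lines and 0.037 without day 5, and for Dusp4 these values were 0.216 and 0.00538. Without the day block, Dusp8 passed over the lines as well (0.0167). For Dusp5 the differences were small, at -0.45 for EA2 against EA1 (-2.25 to 1.36) and -0.31 for EA3 against EA1 (-2.09 to 1.47). In the pairs, 6.44% of all genes differed between EA2 and EA1, 1.79% between EA3 and EA1 and 2.86% between EA3 and EA2.

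In DMSO cultures, several members rose with time, and in alectinib cultures they did not pass that test. The slope of the log2 level per doubling of days in DMSO was 1.73 for Dusp1 in EA1 (adjusted p = 0.0138) and 2.37 in EA3 (0.00144). Dusp10 rose by 1.37 per doubling in EA1 (0.0112) and 0.96 in EA3 (0.0133), and Dusp5 by 1.13 in EA1 (0.0486). Thus 3 of 10 members were called in EA1 and 2 of 10 in EA3, where 3.64% and 11.3% of all genes were called. DESeq2 called 3 members in EA1 and 3 in EA3, beside 10.7% and 18.8% of the genes it tested. In EA2, 0 of 10 were called by edgeR, 0 at an unadjusted p under 0.05 and 0 by DESeq2, with 0.00% of all genes called by either tool. In EA1, no call remained without day 1, 2 or 5. Each of the slopes of Dusp1 and Dusp10 was lost without day 1 (adjusted p of 0.542 and 0.708 for Dusp1 in EA1 and EA3, 0.248 and 0.853 for Dusp10) and without day 5 (0.218, 0.0764, 0.201 and 0.225). Without day 2, they were lost in EA1 for both genes (0.118 and 0.107) and for Dusp10 in EA3 (0.0601). In alectinib, 0 of 10 members had a slope past the threshold in each line by edgeR and by DESeq2. At that same threshold, edgeR called 0.00%, 0.0631% and 0.491% of all genes in EA1, EA2 and EA3, and DESeq2 0.154%, 0.579% and 2.15%. By edgeR, 1, 1 and 1 members had an unadjusted p under 0.05. The share of all genes under that looser limit is not given here, so these counts have no background.

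For Dusp1 and Dusp10, the treatment ratio went down with time in EA1 and EA3, but its slope did not pass edgeR's test. Each doubling of days changed the effect by -2.06 for Dusp1 in EA1 (adjusted p = 0.148) and -2.99 in EA3 (0.059), and for Dusp10 it was -1.54 (0.129) and -1.56 (0.0804). By edgeR, 0 of 10 members passed in each line. At an unadjusted p under 0.05 there were 3, 2 and 6 in EA1, EA2 and EA3, but the share of all genes under that limit is not given here. DESeq2 called 3, 0 and 3, among them Dusp1 (0.000278 in EA1, 5.19e-10 in EA3) and Dusp10 (0.000321 and 7.08e-05). Over all genes, edgeR called 0.0210%, 0.00% and 0.0491% at an adjusted p under 0.05, and DESeq2 2.31%, 0.510% and 3.27%. In EA2, the slopes of the effect were 0.36 for Dusp1 (-0.62 to 1.35) and -0.24 for Dusp10 (-0.85 to 0.37).

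Levels per kilobase of exon allow the genes to be ranked within a line. In EA1 DMSO cultures, the mean CPM per kb over 4 days was 117 ± 49.2 (SD, n = 4) for Dusp4, 59.5 ± 12.8 for Dusp6, 19.1 ± 14.3 for Dusp5 and 17.0 ± 2.23 for Dusp7, with Dusp2 the lowest at 0.407 ± 0.0896. In EA2, Dusp6 led at 105 ± 19.5, ahead of Dusp4 at 49.65 ± 20.9, Dusp5 at 26.8 ± 17.8 and Dusp7 at 16.2 ± 1.46. In EA3, Dusp4 (81.6 ± 62.4), Dusp6 (81.3 ± 16.0), Dusp1 (56.7 ± 76.9), Dusp5 (42.8 ± 19.8) and Dusp7 (39.3 ± 14.5) stood highest. The place of Dusp1 rests on the day 5 library, without which its mean was 19.4 ± 22.7 (SD, n = 3), below Dusp5 and Dusp7. Dusp8 was at 5.06 ± 3.75 in EA1, 1.36 ± 0.308 in EA2 and 1.14 ± 0.289 in EA3. Neighbours in these orders differed by less than the larger of their SDs for Dusp5 and Dusp7 in each line and for each pair of neighbours among Dusp4, Dusp6, Dusp1, Dusp5 and Dusp7 in EA3.

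**Figure D4:**
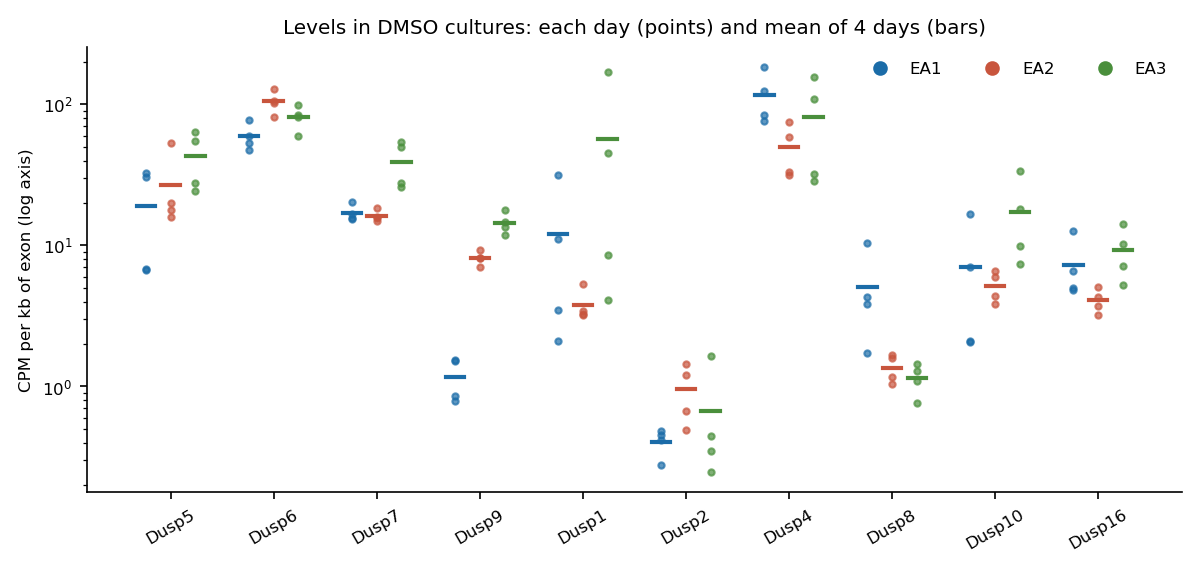
Level of each phosphatase in DMSO cultures (vertical log axis, CPM per kb of exon), with 1 point per day and a bar for the mean of 4 days, colored by line. By the mean, Dusp4 and Dusp6 stand highest and Dusp2 lowest in each line, and the points of Dusp9 in EA1 lie below those in EA2 and EA3.

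The lines differed in their control levels for most members. Of 10, 9 passed the test with 2 degrees of freedom in DMSO, all but Dusp2 (adjusted p = 0.144), beside 55.6% of all genes. Dusp9 had the lowest adjusted p (5.23e-07), with mean levels of 3.20 ± 1.11 CPM in EA1, 22.2 ± 2.40 in EA2 and 39.5 ± 6.85 in EA3 (SD, n = 4). Its 3 lines were all apart, as EA3 exceeded EA1 by 3.64 log2 units (4.77e-07) and EA2 by 0.84 (0.00714). Dusp7 was higher in EA3 than in EA1 (1.16, adjusted p = 0.00156) and EA2 (1.28, 0.000666), and EA2 and EA1 did not pass (-0.12, -0.58 to 0.345). Dusp8 was lower in EA2 (-1.75, 0.00277) and EA3 (-1.99, 0.00173) than in EA1. Dusp4 was likewise lower in EA2 (-1.27, 0.00181) and EA3 (-0.76, 0.0362) than in EA1. In each pair, 5 members differed between EA2 and EA1 (40.8% of all genes), 7 between EA3 and EA1 (32.6%) and 5 between EA3 and EA2 (36.5%). Over the 3 lines, Dusp6 (0.0114) was lost without day 3 (0.0606) or day 5 (0.0726) and Dusp1 (0.00892) without day 3 (0.0691), and without the day term Dusp4 (0.142), Dusp5 (0.227) and Dusp10 (0.0616) were lost.

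In alectinib, Dusp2 was too low to test and 7 of the other 9 differed between lines, where 63.2% of all genes did. They were Dusp4 (adjusted p = 2.82e-05), Dusp5 (0.00223), Dusp6 (0.00323), Dusp7 (0.0175), Dusp9 (0.000106), Dusp10 (0.0158) and Dusp16 (0.000157). Dusp4 stood at 61.8 ± 30.2 CPM in EA1, 15.3 ± 8.98 in EA2 and 72.9 ± 52.1 in EA3 (SD, n = 4), and Dusp6 at 37.9 ± 14.2, 10.3 ± 3.87 and 27.9 ± 14.3. EA2 had the lowest mean of both genes under the drug. Dusp7 was lost without day 1 (0.0578) or day 2 (0.0714) and Dusp10 without day 1 (0.0561), day 2 (0.0916) or day 3 (0.0938), and Dusp1 (0.0536) passed without day 5 (0.0123).

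Summed per kilobase, the family shrank and its makeup shifted. All 10 genes together came to 166 to 580 CPM per kb in the 12 DMSO libraries (lowest 165.7, highest 579.7) and to 56.1 to 182 in the alectinib libraries. The ERK-specific genes went from a mean of 96.7 ± 5.83 CPM per kb in DMSO to 23.9 ± 4.16 in alectinib in EA1, from 156 ± 37.4 to 24.3 ± 5.04 in EA2 and from 178 ± 38.1 to 33.9 ± 12.2 in EA3 (SD, n = 4). The JNK- and p38-directed genes went from 19.3 ± 10.2 to 23.7 ± 1.66, from 10.6 ± 2.11 to 24.5 ± 3.95 and from 27.6 ± 14.5 to 40.2 ± 11.1. Their share of the family was 4.37% to 11.3% in DMSO and 24.5% to 41.6% in alectinib. The ratio of ERK-specific to JNK- and p38-directed transcript was 3.35 to 10.2 in EA1, 13.3 to 15.7 in EA2 and 4.62 to 9.52 in EA3 with DMSO. With alectinib it was 0.801 to 1.21, 0.623 to 1.36 and 0.758 to 1.00. No treated library reached a control ratio in any line. In EA1 on days 3 and 5 and in EA3 on day 5, the JNK- and p38-directed sum was lower with alectinib than with DMSO, and on the other days it was higher. The sums weigh abundant genes most and were not tested.

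**Figure D5:**
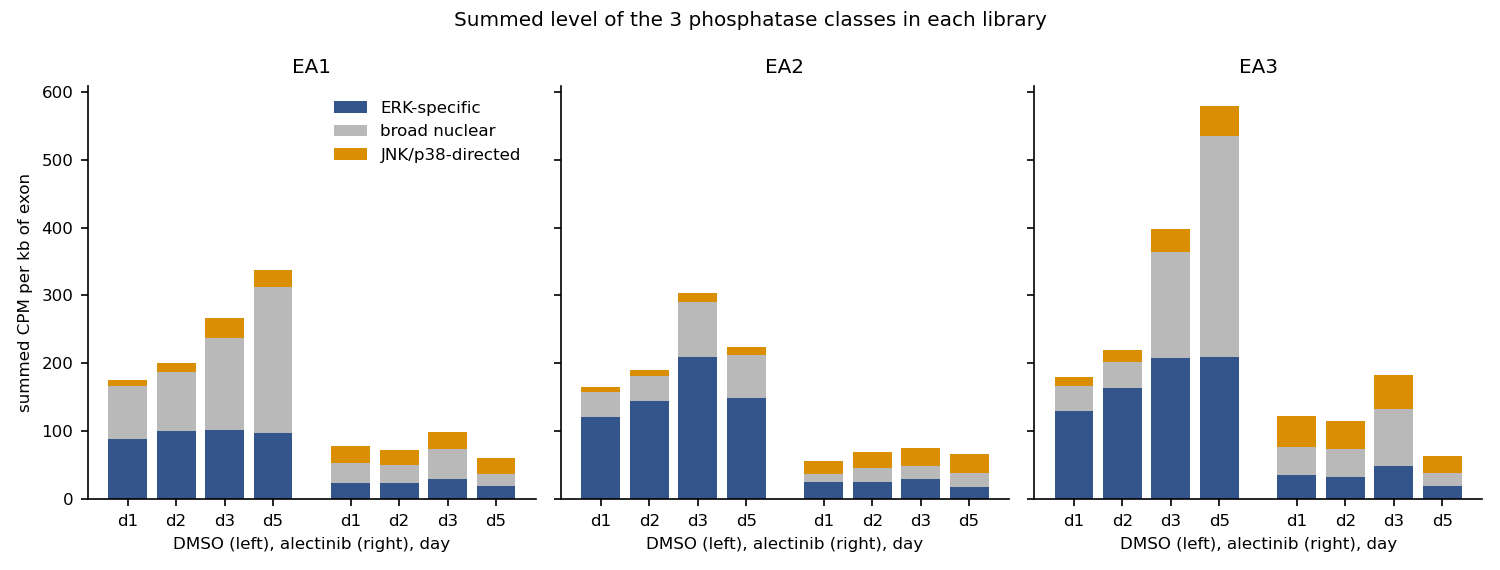
Summed level of the ERK-specific, broad nuclear and JNK- and p38-directed phosphatases (vertical axis, CPM per kb of exon, stacked) in each library, by day, with DMSO libraries on the left and alectinib libraries on the right of each line. The ERK-specific part is 88.4 to 209 in DMSO and 17.2 to 49.2 in alectinib, while the JNK- and p38-directed part is 8.63 to 45.1 in DMSO and 18.9 to 49.0 in alectinib.

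The genes of the surrounding pathway were taken from lists made with earlier results of these data known. Of 18 genes induced by ERK signaling, 12, 13 and 14 fell and 1, 1 and 1 rose in EA1, EA2 and EA3, where 14.6%, 11.3% and 15.1% of all genes fell and 19.0%, 13.0% and 17.5% rose. The medians were -1.22, -2.32 and -1.51 log2 units, against 0.065, 0 and 0.067 over all genes tested. The 10 that fell in all lines were Etv4, Etv5, Fosl1, Spry2, Spry4, Spred1, Spred2, Spred3, Ccnd1 and Fos, of which Spry and Spred genes encode inhibitors upstream of ERK. The study picked Etv4, Etv5, Fosl1 and Dusp6 as readouts on these samples, so they are not independent evidence of a direction. Spry4 had log2 fold changes of -4.27, -7.06 and -5.74, and the ephrin receptor gene Epha4 rose by 1.96, 0.88 and 1.19. The tyrosine phosphatase gene Ptpn5, whose product also acts on ERK and p38, had values of -4.02, -3.90 and -5.70, all past the threshold, and was the only 1 of 3 in its list with enough counts to test.

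Of 13 MAP kinase genes, 1, 3 and 2 were called in EA1, EA2 and EA3, where 33.6%, 24.4% and 32.6% of all genes were called, so that the share in EA2 was near that of all genes. They had medians of -0.07, -0.10 and -0.23. Mapk6 fell in EA1 and EA3, Mapk10 and Mapk11 fell in EA2, and Mapk13 rose in EA2 and Mapk4 in EA3, all named after their values were seen. Mapk10 was highest in EA2 DMSO (2.973 to 5.714 CPM) and Mapk4 in EA3 alectinib (1.694 to 2.705 CPM), and both were low elsewhere. They passed the filter through 1 treatment, so their calls are partly built in. Of 7 MAP kinase kinase genes, 1, 1 and 2 fell, beside 14.6%, 11.3% and 15.1% of all genes, and the share in EA1 and EA2 was near that. Map2k6, an activator of p38, was lower in every line, at -0.87 in EA1 (adjusted p = 0.0415), -2.16 in EA2 (0.000379) and -1.95 in EA3 (0.000598), and Map2k1, named after its values were seen, fell in EA3. Of 13 outputs of JNK, p38 and stress, 2 fell in EA1 and in EA3 (Junb and Ddit3) and 2 rose in EA2 (Gadd45b and Gadd45g), also named after their values were seen. These shares were near those of all genes, of which 14.6% and 15.1% fell in EA1 and EA3 and 13.0% rose in EA2. Of 14 other dual-specificity phosphatase genes, 9 were tested. Dusp14 rose in EA2 (2.12) and EA3 (1.17) and Dusp3 in EA3 (1.78), where 13.0% and 17.5% of all genes rose, so that 1 and 2 of 9 were near the share of all genes. In EA1 the lowest adjusted p was 0.07, for Dusp11. These 3 genes were named after their values were seen.

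Across the 24 libraries, Dusp6 followed Etv5 (Pearson r = 0.978) and Etv4 (0.969) most closely among 9371 genes with a mean log2 CPM of at least 3. Dusp5 was most like Rai14 (0.957) and Hbegf (0.944), Dusp9 like Bmp7 (0.957), Dusp7 like Git1 (0.874), Dusp4 like Irf2bp2 (0.927), Dusp2 like Etv5 (0.884), Dusp8 like Ptprk (0.945) and Dusp16 like Slc35f6 (0.905). Dusp1 and Dusp10 were each other's closest gene (0.872). Within the family, r was 0.832 between Dusp5 and Dusp6, 0.858 between Dusp2 and Dusp6, -0.722 between Dusp6 and Dusp8 and -0.168 between Dusp1 and Dusp6. These correlations describe libraries that share line, treatment and day, and are given without a test.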

How the data were processed

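RNA was sequenced as paired reads from polyA-selected, stranded libraries made with 15 cycles of PCR. The authors checked reads with FastQC, trimmed adapters with bbduk, used STAR with the mm10 genome for alignment, and deposited STAR's own raw counts per gene. The annotation release and the strand column are not given in the sources used here. The 24 rows whose symbol had become a date (0.1287% to 0.2014% of counts) were left out, and the 2 libraries labelled EA3 day 7 were used only in an alternative. Some items are not reported here.

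From the deposited counts, edgeR 4.0.16 (R 4.3.3, limma 3.58.1) fitted 24 libraries with TMM scaling, filterByExpr, robust quasi-likelihood, 12 blocks of line and day, and an alectinib effect per line. Lines within a treatment were compared with day as a term, and slopes with the log2 of days. P-values were adjusted by Benjamini-Hochberg over all genes tested, with a threshold of 0.05. Exon lengths and positions came from GENCODE M21, and log2 CPM had a prior count of 2. The code was tested on simulated data. The day in the labels pairs treated and control libraries, whose deviations correlated at -0.3 to 0.549.

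Members, classes and gene lists were chosen with earlier results of these data known. The text names all members, list genes called the same way in the 3 lines, and genes among the 3 most alike to a member. Other list genes were named after their values were seen. Alternatives were DESeq2 1.42.0, other scalings and filters, each day left out, no day block, each line alone and all 26 libraries. DESeq2's likelihood ratio test over the 3 lines and the Dusp1 level without day 5 were chosen after seeing the data. Libraries held 5780062 to 11732401 counts. Python 3.11.15, pandas 2.3.3 and matplotlib 3.10.9 were also used.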

Additional observations from a re-analysis of the deposited data

Results flagged for a closer look

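Of 60 groups of 4 libraries (10 genes, 3 lines, 2 treatments), 2 held a library far from the others by Dixon's ratio of gap to range, where chance flags about 5% of groups. Dusp1 in EA2 DMSO on day 3 had a ratio of 0.86, at 17.6 CPM against 10.6 to 11.3 CPM in the other libraries. Dusp10 in EA3 alectinib on day 5 had a ratio of 0.866, at 27.7 CPM against 70.3 to 81.2 CPM.

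The fall of Dusp6 with alectinib differed between lines by edgeR's test of the difference itself (adjusted p = 0.00605), EA1 having a log2 fold change of -2.34, EA2 of -5.03 and EA3 of -3.28. This call was lost without day 5. It was 1 call among 10 members, beside 6.84% of all genes.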

How the results depend on the processing

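Of the 21 fold changes past the threshold, 3 of them of Dusp2, whose calls are partly built in by the filter, 20 passed with DESeq2, 21 with DESeq2's size factors, 19 with library size alone, 21 without a filter and 18 with all 26 libraries. With at least 10 counts in every library, 15 of 15 passed, Dusp2 and Dusp9 not being tested, which took the members lower in EA2 from 5 to 3. None of the 21 changed sign. With each line alone, 17 of 18 tested passed. Without day 1, 2, 3 or 5, 16 of 21, 16 of 21, 16 of 18 and 18 of 21 passed.

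Without the replicate block (day within line), 17 of 21 passed. The members higher in EA1 went from 1 to 0, those higher in EA3 from 2 to 1, and those whose effect differed between lines from 1 to 2. Over all genes, effects that differed between lines went from 976 to 807. Calls in either direction went from 4791 to 4426 in EA1 and from 4650 to 4166 in EA3.

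The members higher in EA1 (1) numbered 2 without a filter, 0 with 26 libraries and 0 to 1 with a day left out. In EA2 (1), they were 2 with DESeq2, 3 without a filter, 3 with the line alone and 1 to 2 with a day left out. In EA3 (2), they were 1 with 26 libraries and 0 to 2 with a day left out. Calls over all genes, in either direction, were 4791 in EA1, 5115 without a filter and 4387 with 26 libraries. In EA2 they were 3475, 3985 with DESeq2, 3682 without a filter and 3950 with the line alone, and in EA3 4650 and 4662 with 26 libraries. The effect differed between lines for 1 member, for 3 with DESeq2, 6 without a filter and 1 to 2 with a day left out. Over all genes, it differed for 976 of 14264 tested, 1963 of 13710 with DESeq2, 2698 without a filter and 211 to 792 with a day left out. Slopes of the effect (0) numbered 3 with DESeq2 and 1 without a filter in EA1, and 3, 1 and, with at least 10 counts, 2 in EA3. Slopes in DMSO numbered 3 in EA1, 0 to 3 with a day left out, and 2 in EA3, 4 without a filter and 0 to 5 with a day left out. For slopes of the effect, DESeq2 called 2.31% of the genes it tested in EA1 and 3.27% in EA3. Shares of all genes for slopes in the other settings are not given here.

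Over all genes, calls fell from 4791 to 2796 in EA1 and from 3475 to 2142 in EA2 without day 3, and from 4650 to 2836 in EA3 without day 2. Effects that differed between lines (976 genes) were 1963 with DESeq2, 2698 without a filter, 211 without day 3, 318 without day 5 and 398 with 26 libraries. The cause was not tested.

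Values that changed sign had not passed the test. Dusp1 became 0.17 (without day 3) and 0.68 (day 5) in EA1, and 0.015 (library size alone), 0.22 (without day 3), 1.01 (day 5) and 0.146 (26 libraries) in EA3. Dusp8 in EA1 became -0.39 (without day 1), -0.002 (day 5) and -0.18 (no replicate block), and its difference between EA3 and EA2 became 0.26 (without day 5). Dusp7 in EA2 became -0.028 (without day 3) and Dusp10 in EA3 -0.054 (without day 1).

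Counts limit Dusp2, with at most 29 per library, and Dusp9 in EA1 alectinib, with 4 to 13. No condition had a repeated library, so a difference between days cannot be told apart from one between libraries.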

Other observations

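In the library labelled EA3 day 7 DMSO, expression over genes correlated at 0.9 to 0.977 with the EA2 libraries and at 0.807 to 0.889 with the EA3 libraries, and in the alectinib library of that day at 0.902 to 0.988 and 0.798 to 0.871. In this pair, Dusp6 went from 373 CPM with DMSO to 9.99 CPM with alectinib, and Dusp5 stood at 117 and 3.13 CPM, Dusp9 at 32.9 and 1.35 CPM and Dusp7 at 78.4 and 30.5 CPM. Dusp4 stood at 303 and 10.2 CPM and Dusp1 at 37.4 and 68.5 CPM, and Dusp2 had 21 counts and 1 count. Dusp8 stood at 20.15 and 56.2 CPM, Dusp10 at 28.2 and 33.3 CPM and Dusp16 at 53.3 and 39.8 CPM. The ratio of ERK-specific to JNK- and p38-directed transcript, per kb of exon, was 9.98 in DMSO and 0.508 in alectinib. With 1 library per treatment, these differences have no replicate check.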
